A study of Homo sapiens with 12 samples.

Results

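Transcripts of the RB (retinoblastoma) pocket protein family and of its partners in the DREAM complex were measured by poly(A) RNA sequencing in HL-60 cells. HL-60 is an established human myeloid leukaemia line of promyelocyte-like cells. The 10 genes, taken by symbol from the 58233 genes listed, were the pocket proteins RB1, RBL1 and RBL2, the MuvB core subunits LIN9, LIN37, LIN52 and LIN54, the MYB family factors MYBL1 and MYBL2, and the forkhead factor FOXM1. Cells were left untreated, or were treated for 3 h with 100 nM all-trans retinoic acid (ATRA, the ligand of the retinoic acid receptors), with 500 nM palbociclib (which blocks the cyclin D kinases CDK4 and CDK6) or with both drugs at these doses, and each of the 4 groups had 3 libraries. The labels name no vehicle for the untreated group. They also do not say whether the libraries of a group came from separate cultures, so p-values measure only the spread between these libraries, which may be technical. All groups are the same cell line, and other leukaemia lines were not analysed here.

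Pocket proteins bind E2F transcription factors and hold back the genes that E2F would otherwise switch on, and phosphorylation by cyclin-dependent kinases releases E2F from them. In resting cells RBL2 or RBL1 joins E2F4, a DP partner and the MuvB core to form DREAM, which represses both early (G1/S) and late (G2/M) cell cycle genes. In cycling cells the same MuvB core leaves the pocket proteins and binds first MYBL2 and then FOXM1, and these assemblies activate the late genes. LIN54 is the subunit that contacts DNA at the CHR element, a short motif of late cell cycle promoters, while LIN52 holds the pocket protein or MYBL2.

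Sequences of the 250 bases before the transcript start are shown for the members whose single listed window held letters of an E2F site, since RBL1 was also the member with the largest measured difference. They were read from RefSeq on GRCh38.p14, in which 8 of the 10 genes had an entry. FOXM1 and MYBL1 had none. Both strands were searched for 4 strings of E2F letters, namely TTCCCGC or TTGGCGC or TTGCCGC or TTCGCGC, and capitals mark the matches. Both sequences read 5′ to 3′ on the strand of the gene. The RBL1 window is chr20:37095998-37096247 (minus strand) and the LIN52 window is chr14:74084706-74084955 (plus strand).
RBL1: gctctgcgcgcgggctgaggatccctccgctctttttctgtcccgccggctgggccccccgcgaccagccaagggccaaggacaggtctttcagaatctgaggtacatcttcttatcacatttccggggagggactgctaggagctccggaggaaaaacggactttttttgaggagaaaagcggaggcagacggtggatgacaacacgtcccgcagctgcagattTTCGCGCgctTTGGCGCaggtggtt
LIN52: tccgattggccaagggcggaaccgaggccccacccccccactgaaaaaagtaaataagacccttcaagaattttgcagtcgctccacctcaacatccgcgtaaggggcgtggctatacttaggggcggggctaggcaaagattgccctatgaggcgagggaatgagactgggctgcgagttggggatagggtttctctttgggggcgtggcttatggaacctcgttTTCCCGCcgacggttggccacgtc
The 2 matches of RBL1 lay 19 to 25 and 9 to 15 bases before the start, and the match of LIN52 lay 18 to 24 bases before it. An E2F match was present in 10.9% of the 35116 windows of this length. LIN9 had 1 further E2F match, in 1 of its 3 windows. The CHR letters TTTGAA or TTCGAA, present in 14.3% of all windows, occurred in windows of LIN9, LIN37 and LIN54. The windows of RB1, RBL2 and MYBL2 held neither motif. As GENCODE annotates the genes, the windows of RB1, RBL2 and LIN54 lie inside the gene, and so do the LIN9 and LIN37 windows with a match. The MYBL2 window lies partly inside its gene. Only the RBL1 and LIN52 windows lie wholly before the annotated gene. A match is a string of letters, and binding was not measured here.

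Values are RPKM (reads scaled to gene length and library size), deposited as whole numbers, so a step of 1 RPKM equals 0.02 on the log2 scale for MYBL2, 0.16 for RBL1 and 0.23 for LIN9 at their mean levels. Genes with at least 5 RPKM in at least 3 libraries were tested with limma, which kept 7820 genes and 7 of the 10 members. A gene was called at a Benjamini-Hochberg adjusted p under 0.05 over all genes tested. RPKM values do not show how deeply a library was sequenced, and the study's methods give only an average over samples. The myeloid markers MPO, PRTN3 and SPI1 were present in every library at 1077 to 1579, 195 to 310 and 80 to 112 RPKM, whereas ELANE, another promyelocyte marker, was at 0 or 1. The markers of other cell types CD3E, HBB, EPCAM and COL1A1 were at 0 in all 12 libraries. In replicate 1 of each treated group, long transcripts were low relative to short ones: the median deviation of genes above the upper quartile of exonic length (6980 bases) minus that of genes below the lower quartile (2140.5 bases) was -0.371 (ATRA), -0.344 (palbociclib) and -0.395 (combination) on the log2 scale, against -0.0828 to 0.0209 in the other 9 libraries. RB1, RBL1, RBL2 and LIN54 have 6434, 5956, 8110 and 6762 exonic bases per gene in GENCODE v44, and only RBL2 lies above that upper quartile. The calls and list counts against untreated cells are also given without replicate 1 of every group where they differ. In a bulk sample, fewer cells expressing a gene and less RNA per cell cannot be told apart.

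In untreated cells the members spanned the range from 0 to 93 RPKM. MYBL2, the B-MYB activator of late cell cycle genes, was the most abundant member at 80 to 93 RPKM. RB1, the founding pocket protein, followed at 21 to 25 RPKM, and FOXM1 at 15 to 19 RPKM came next. None of these 3 ranges overlapped its neighbour. RBL2 at 11 to 14 RPKM and RBL1 at 11 to 12 RPKM could not be separated by their spread, and FOXM1 lay just above both. Among the MuvB subunits, LIN9 at 6 to 7 RPKM and LIN54 at 5 to 6 RPKM met at 6, and LIN52 stood below them at 3 RPKM in each untreated library. LIN37, the subunit that DREAM needs for repression, was listed at 0, 1 and 0 RPKM, and MYBL1, the A-MYB relative of MYBL2, was listed at 0 in all 12 libraries.

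**Figure D1:**
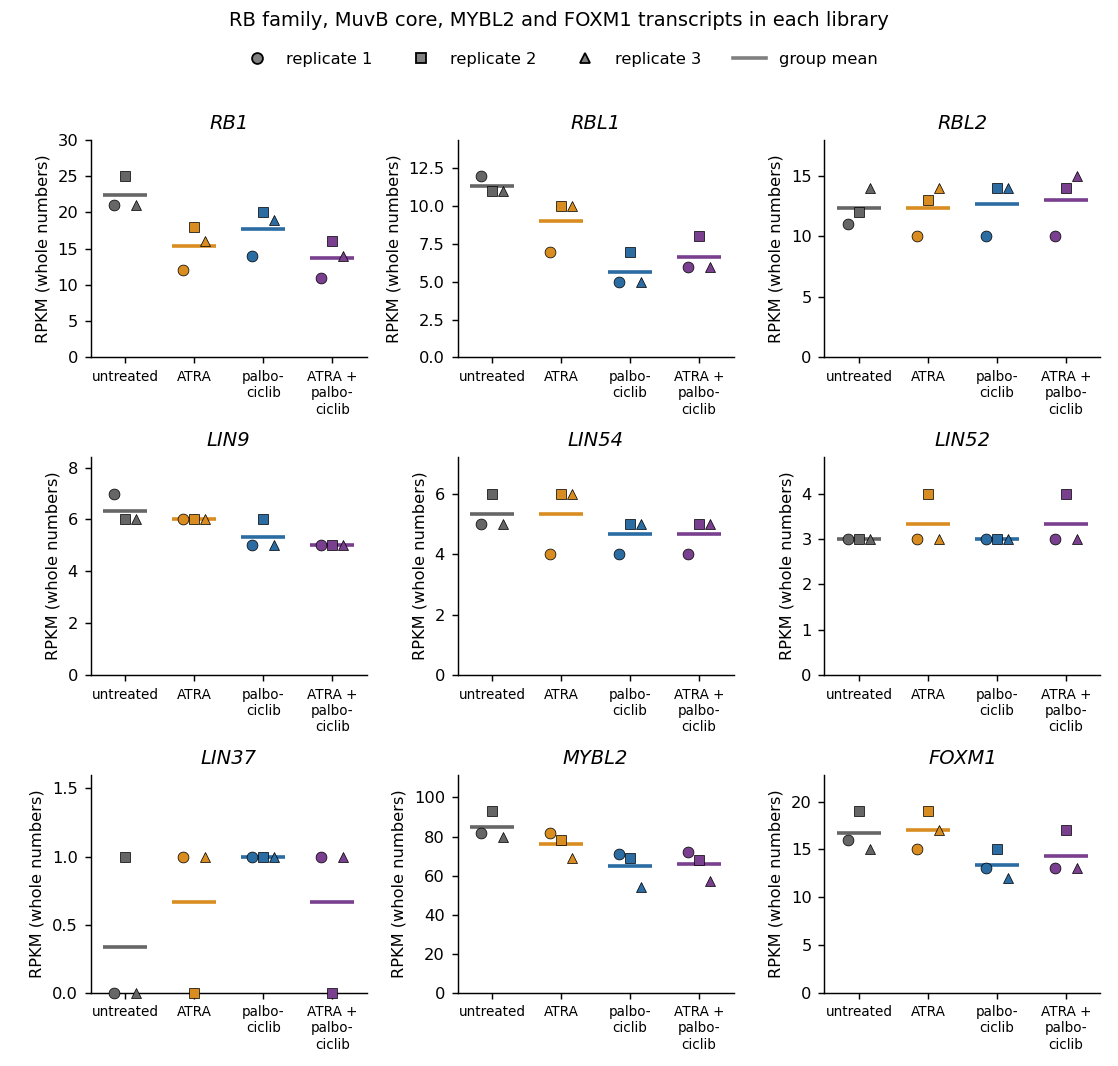
RPKM (whole numbers, y axis from 0) of 9 members in each of the 12 libraries by treatment (x axis); symbols are replicates 1 to 3 and lines are group means, and MYBL1, at 0 in every library, is not drawn. RBL1 sits at 11 to 12 in untreated cells and at 5 to 7 with palbociclib, while RBL2 lies between 10 and 15 in all groups.

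In the comparisons with untreated cells, which ask what each treatment changed at 3 h, none of the 7 tested members was called with ATRA, where 20.3% of all tested genes were called, with 11.6% called lower. With palbociclib 1 of 7 (RBL1) was called lower, where 4.07% of all tested genes were called, with 3.16% called lower. With the combination 4 of 7 (RBL1, RB1, MYBL2 and LIN9) were called lower, where 30.4% of all tested genes were called, with 17.7% called lower. The members whose 3 treated libraries all lay below the 3 untreated ones numbered 2 with ATRA (RB1 and RBL1), 3 with palbociclib (RB1, RBL1 and MYBL2) and 4 with the combination (the same with LIN9), where 17.3%, 9.48% and 20.6% of all tested genes did so. No member was called higher in these comparisons. These 3 comparisons share the untreated libraries, so their results are not independent of each other.

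RBL1 (ENSG00000080839, chromosome 20, 36996349 to 37095997 on the minus strand in GENCODE v44, GRCh38) encodes p107, the pocket protein that is itself an E2F target gene in cycling cells. It read 12, 11 and 11 RPKM in the untreated libraries, 7, 10 and 10 with ATRA, 5, 7 and 5 with palbociclib and 6, 8 and 6 with the combination. All 3 palbociclib libraries and all 3 combination libraries lay below all 3 untreated libraries, and so did the ATRA libraries by a narrower margin. Palbociclib lowered RBL1 from 11.3 ± 0.577 to 5.67 ± 1.15 RPKM (SD, n = 3), which is -1.0 on the log2 scale (standard error 0.17, limma adjusted p = 0.00948). The combination lowered it to 6.67 ± 1.15 RPKM, a change of -0.77 on the log2 scale (standard error 0.17, adjusted p = 0.00721). With ATRA alone its mean was 9.0 ± 1.73 RPKM and the change was not called (log2 fold change -0.35, adjusted p = 0.195). RBL1 was thus called in both groups that received palbociclib. The palbociclib call was lost without untreated replicate 1 (adjusted p = 0.0504) and without replicate 1 of every group (log2 fold change -0.88, adjusted p = 0.0852), and the combination call was also lost without replicate 1 of every group (-0.66, adjusted p = 0.0644). Both held with a correction for gene length (adjusted p = 0.0049 and 0.00579).

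RB1 (ENSG00000139687, chromosome 13, 48303744 to 48599436, plus strand) is the tumour suppressor and the target through which inhibitors of CDK4 and CDK6 arrest cells. It read 21, 25 and 21 RPKM in untreated cells, 12, 18 and 16 with ATRA, 14, 20 and 19 with palbociclib and 11, 16 and 14 with the combination. Every treated library lay below every untreated one, and replicate 1 was the lowest of its group in each treatment. The combination lowered RB1 from 22.3 ± 2.31 to 13.7 ± 2.52 RPKM (SD, n = 3), which is -0.72 on the log2 scale (standard error 0.19, adjusted p = 0.0140). With ATRA alone the log2 fold change was -0.55 (95% confidence interval -0.96 to -0.15) and just missed the threshold (adjusted p = 0.0579). With palbociclib alone it was -0.35 and was not called (adjusted p = 0.377). The single-drug results depended on the fit: RB1 was also called with ATRA in a robust fit (adjusted p = 0.0484), with the length correction (0.0466), with the replicate block (0.000976) and without ATRA replicate 2, palbociclib replicate 1 or combination replicate 1 (0.0430 to 0.04998), and with palbociclib under the block (0.0235). The combination did not differ from ATRA beyond its error (-0.16, 95% confidence interval -0.57 to 0.25, adjusted p = 1). The combination call held without replicate 1 of every group (-0.61, adjusted p = 0.0177) and with the length correction (-0.64, adjusted p = 0.00924), and was lost without untreated replicate 2 (adjusted p = 0.0579).

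RBL2 encodes p130, the pocket protein that predominates in DREAM of resting cells. It read 11, 12 and 14 RPKM in untreated cells, 10, 13 and 14 with ATRA, 10, 14 and 14 with palbociclib and 10, 14 and 15 with the combination. The groups overlapped throughout. Its log2 fold change was -0.01 with ATRA, 0.03 with palbociclib (95% confidence interval -0.39 to 0.44) and 0.06 with the combination (-0.35 to 0.48), and none was called. These intervals leave room for a change of moderate size in either direction. With the length correction and the replicate block together, RBL2 was called higher with the combination (log2 fold change 0.16, adjusted p = 0.0491). In that fit 1955 of 7795 tested genes were called higher. RBL2 shares 8.89% and 7.51% of its exonic bases with ENSG00000279344 and AKTIP on the opposite strand, reads of which cannot be told apart if the libraries did not mark strand.

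The balance within the family differed between groups. RBL1 divided by RBL2 in the same library was 1.09, 0.917 and 0.786 in untreated cells and 0.5, 0.5 and 0.357 with palbociclib, with no overlap. RBL2 made up 26.8% ± 3.14 of the summed pocket protein RPKM in untreated cells, 35.2% ± 1.47 with palbociclib and 38.9% ± 3.42 with the combination (SD, n = 3). Of the other family members, RB1 held a smaller share of the sum in the groups with ATRA, and RBL1 in the groups with palbociclib. RB1 held 48.5% of the sum in untreated cells and 49.0% with palbociclib, but 41.8% with ATRA and 40.9% with the combination. RBL1 held 24.7% in untreated cells and 24.5% with ATRA, but 15.8% with palbociclib and 20.1% with the combination. For the RBL1 to RBL2 ratio, the two-sided exact permutation test of palbociclib against untreated gave p = 0.1, the smallest that 3 against 3 libraries allow (adjusted p = 0.143 over the 30 relations of this kind), so this test could not pass the threshold. Without replicate 1 the mean ratio was 0.851 in untreated cells and 0.429 with palbociclib.

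**Figure D2:**
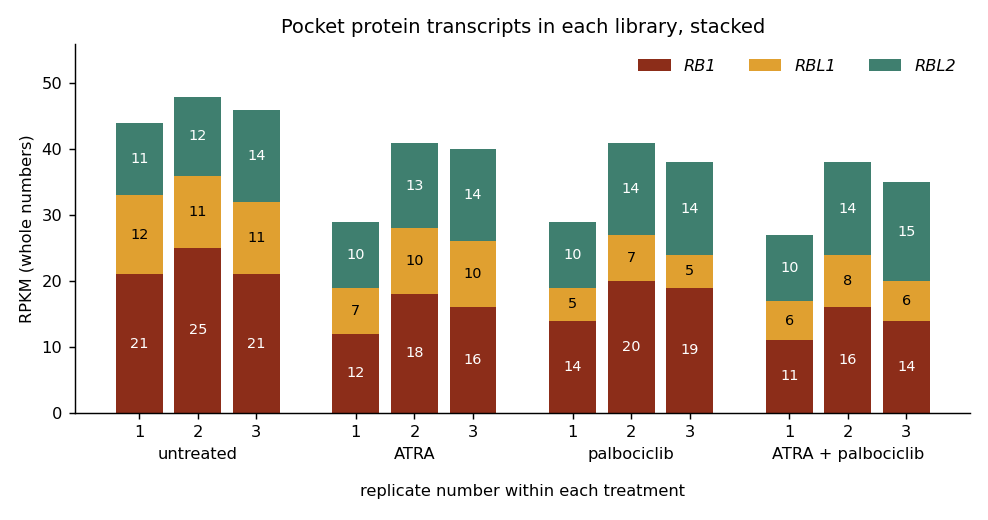
RPKM of RB1, RBL1 and RBL2 (whole numbers, y axis from 0) stacked for each of the 12 libraries, with replicate number and treatment on the x axis. The sum is 44 to 48 in untreated libraries and 27 to 41 in treated ones, the RBL2 segment stays at 10 to 15, and replicate 1 has the lowest sum of each treated group.

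LIN9 (ENSG00000183814, chromosome 1, 226231149 to 226309869, minus strand) is the MuvB scaffold subunit. It read 7, 6 and 6 RPKM in untreated cells, 6 in each ATRA library, 5, 6 and 5 with palbociclib and 5 in each combination library. The 3 combination libraries lay below all untreated and all ATRA libraries, the nearest by a single step of 1 RPKM, and 2.52% of all tested genes lay below all ATRA libraries in this way. LIN9 was called lower with the combination (log2 fold change -0.33, standard error 0.09, adjusted p = 0.0177), a call that was lost without untreated replicate 1 (adjusted p = 0.0637) and without replicate 1 of every group (adjusted p = 0.0732). Identical rounded replicates show no spread of their own, so the error of LIN9 comes from the other groups and from limma's pooled estimate.

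The other MuvB subunits of the set, LIN54, LIN52 and LIN37, were not called in any comparison. LIN54 ranged from 4 to 6 RPKM and its groups overlapped, with log2 fold changes of -0.02 with ATRA and -0.19 with palbociclib as well as with the combination (adjusted p = 0.984, 0.636 and 0.434). LIN52 read 3 or 4 RPKM and LIN37 read 0 or 1 RPKM in every library, both under the limit for testing, where a step of 1 RPKM equals 0.39 and 1.2 on the log2 scale. LIN37 shares 26.7% of its exonic bases with an overlapping gene on the same strand and 41.8% with ENSG00000267439 on the opposite strand. Its value is also uncertain in that respect.

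MYBL2 (ENSG00000101057, chromosome 20, 43667019 to 43716495, plus strand) is an E2F target gene, and its product takes the place of the pocket proteins on MuvB when cells enter S phase. It read 82, 93 and 80 RPKM in untreated cells, 82, 78 and 69 with ATRA, 71, 69 and 54 with palbociclib and 72, 68 and 57 with the combination. The palbociclib and combination libraries all lay below the untreated ones, whereas the ATRA libraries overlapped them. The combination lowered MYBL2 from 85.0 ± 7.0 to 65.7 ± 7.77 RPKM (SD, n = 3), which is -0.38 on the log2 scale (standard error 0.12, adjusted p = 0.0389). Palbociclib alone gave a log2 fold change of -0.40 (standard error 0.12) that was not called (adjusted p = 0.0986). This change was called with the replicate block, where 8.13% of all tested genes were called lower. Its limma adjusted p ranged from 0.000292 to 0.292 over 27 alternatives. The combination differed from palbociclib by 0.03 (95% confidence interval -0.24 to 0.30). The combination call was the weakest of the set: it was lost when any untreated library, ATRA replicate 2, or combination replicate 2 or 3 was left out (adjusted p = 0.0532 to 0.140), with lower filters (0.0585 to 0.0785), with the 6 compared libraries alone (0.0581) and without replicate 1 of every group (0.0889).

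FOXM1 drives late cell cycle genes after it is recruited by MYBL2 and MuvB. It read 16, 19 and 15 RPKM in untreated cells, 15, 19 and 17 with ATRA, 13, 15 and 12 with palbociclib and 13, 17 and 13 with the combination. The palbociclib libraries met the untreated ones at 15 RPKM and otherwise lay below them, and the other groups overlapped the untreated one over more of their range. Its log2 fold change was 0.03 with ATRA, -0.32 with palbociclib (95% confidence interval -0.62 to -0.02, adjusted p = 0.262) and -0.22 with the combination (adjusted p = 0.255), none of them called. FOXM1 shares 15.9% of its exonic bases with ITFG2 on the opposite strand, and the sources used here do not say that the libraries marked strand, so reads of that stretch cannot be told apart.

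**Figure D3:**
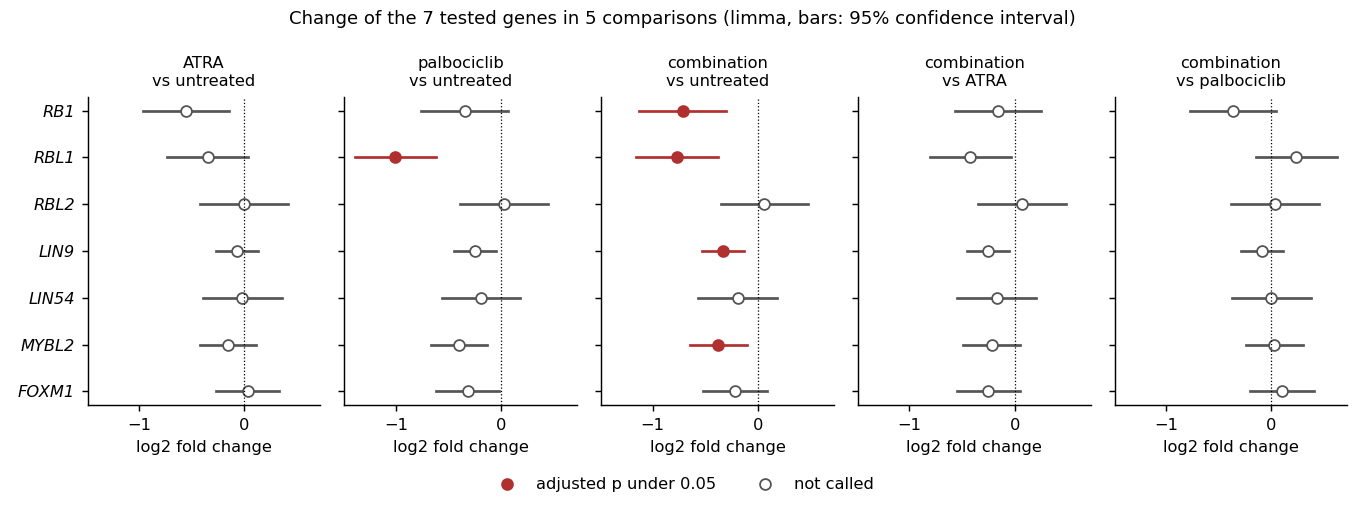
Log2 fold change (x axis) with its 95% confidence interval (bars) for the 7 tested members (rows) in 5 comparisons (panels), from limma without pairing of libraries. Filled points were called at an adjusted p under 0.05. RBL1 is filled with palbociclib and with the combination, RB1, LIN9 and MYBL2 are filled in the panel of the combination against untreated cells, and no member is filled against either single drug.

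The combination was next compared with each drug alone, which asks what the other drug added. The main fit behind both comparisons did not pair libraries. Against ATRA, none of the 7 members was called, where 0.115% of all tested genes were (9 genes, all lower), with 287 genes at an unadjusted p under 0.05. The log2 fold changes were -0.42 for RBL1, -0.26 for LIN9, -0.25 for FOXM1 and -0.22 for MYBL2. When the 6 libraries compared were fitted on their own, LIN9 was called (adjusted p = 0.0336, against 0.876 with all 12 libraries). Same-numbered libraries of the treated groups deviated together, so they can be read as pairs: the combination library was lower than its ATRA counterpart in 3 of 3 pairs for RB1, RBL1, LIN9, MYBL2 and FOXM1, by 10, 10 and 12 RPKM for MYBL2 and by 1, 2 and 4 RPKM for RBL1. This was the case for 11.6% of all tested genes. With the replicate number as a block, still no member was called.

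Against palbociclib, none of the 7 members was called in the main fit either, where 12.5% of all tested genes were. RB1 had the largest difference, -0.37 on the log2 scale (standard error 0.19, adjusted p = 0.270), and it was lower in the combination than in its palbociclib counterpart by 3, 4 and 5 RPKM. With the replicate block RB1 was called (adjusted p = 0.0106), where 13.4% of all tested genes were called lower. Without replicate 1 of every group its value was -0.38 (adjusted p = 0.0996). RBL1 went the other way by 1 RPKM in each of the 3 pairs, a log2 fold change of 0.24 (adjusted p = 0.4995). Lower values in 3 of 3 pairs were found for 23% of all tested genes and higher values in 3 of 3 pairs for 18.7%.

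The departure from additivity, the combination minus the sum of both single changes, asks whether the drugs together did something other than what each did alone. No member and none of the 7820 tested genes (0%) was called by limma, while 236 genes had an unadjusted p under 0.05. RBL1 had the largest value of the members, 0.58 on the log2 scale (standard error 0.25, 95% confidence interval 0.04 to 1.13, unadjusted p = 0.0382, adjusted p = 1), so its change with the combination was smaller in size than the sum of the single changes.

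Of the partners of these proteins, 14 of 18 were tested, and 5 of the 18 also belong to a target list used here. None was called higher. ATRA lowered 5 of them, palbociclib 7 and the combination 10, with median log2 fold changes of -0.28, -0.27 and -0.43 against medians of -0.01 to 0 over all tested genes, of which 11.6%, 3.16% and 17.7% were called lower. Without replicate 1 of every group the counts were 3, 3 and 8 of 14, and 14.9%, 3.66% and 19.7% of all tested genes were then called lower. E2F1, the activator E2F bound by RB1, read 14, 12 and 12 RPKM in untreated cells, 9, 8 and 8 with ATRA, 5, 5 and 4 with palbociclib and 4, 4 and 3 with the combination. CCNE1, the cyclin that directs CDK2 to the pocket proteins, read 15, 13 and 15 RPKM in untreated cells, 9, 8 and 8 with ATRA, 5 in each palbociclib library and 5, 4 and 4 with the combination. Both were lower in every treated library than in any untreated one, and they were the 2 partners called lower in the combination against ATRA (log2 fold change -1.17 and -0.93).

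Among the remaining partners, CDK2 and TFDP1, the DP subunit of E2F dimers, were called lower with each treatment, and CDK4 with ATRA and with the combination. E2F3, CCNA2 and RBBP4, the histone-binding subunit of the MuvB core, were called lower with palbociclib and with the combination. RBBP4 read 28, 30 and 30 RPKM in untreated cells and 23, 26 and 24 with palbociclib (log2 fold change -0.27, adjusted p = 0.0415). CDK6 and E2F6 were called lower with the combination among the 3 comparisons with untreated cells. E2F4, the repressor E2F of DREAM, was not called, with group means of 51.3 RPKM in untreated cells, 47.3 with ATRA, 51.7 with palbociclib and 48.7 with the combination.

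Targets were described by an early (G1/S) list of 32 E2F and RB target genes, of which 30 were tested. A late (G2/M) list held 28 genes served by MuvB, MYBL2 and FOXM1, all tested. Both lists were written from general knowledge with earlier results of these data known, so their counts are only a description. Of the early genes, 16 of 30 were called lower with ATRA, 24 of 30 with palbociclib and 27 of 30 with the combination, and none was called higher, where 11.6%, 3.16% and 17.7% of all tested genes were called lower. Without replicate 1 of every group the counts were 10, 20 and 27 of 30. In that setting 14.9%, 3.66% and 19.7% of all tested genes were called lower. GINS1 read 6, 6 and 7 RPKM in untreated cells and would not have passed the filter without these libraries. Its lower calls with palbociclib and with the combination therefore cannot be read as support. The median log2 fold changes of the early list were -0.27, -0.79 and -0.67, and with palbociclib all 30 values were below 0. The RBL1 change with palbociclib, -1.0, lay within the range of the early list (-1.50 to -0.31). So did the changes of MYBL2 (-0.40), RB1 (-0.35) and FOXM1 (-0.32), none of which was called. An example from the early list is MCM4, a subunit of the replicative helicase, with 79, 80 and 82 RPKM in untreated cells and 40, 41 and 36 with palbociclib. Another is CDC25A, a phosphatase that activates CDK2, with 36, 35 and 34 RPKM against 18, 19 and 18. In the departure from additivity none of the 30 early genes was called, and all values were above 0, as for RBL1. They ranged from 0.15 to 0.56, with a median of 0.36.

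The late list gave fewer calls. None of its 28 genes was called lower with ATRA, 2 were with palbociclib (CCNA2, log2 fold change -0.41, and CDK1, -0.37) and 1 was with the combination (CCNA2, -0.39), where 11.6%, 3.16% and 17.7% of all tested genes were called lower. Without replicate 1 of every group the counts were 0, 0 and 1, and 14.9%, 3.66% and 19.7% of all tested genes were then called lower. Higher calls were NEK2 and CDC25C with ATRA and with the combination, and KIF2C and CDC25C in the combination against palbociclib. Of all tested genes, 8.71%, 12.7% and 5.86% were called higher in these comparisons, in that order. CDC25C read 3 RPKM in each untreated library and 3 or 4 with palbociclib, and reached 5 RPKM only in the groups with ATRA. It passed the filter only through the groups where it was high, so its higher calls cannot be read as support. Without replicate 1 of every group, NEK2 was called with neither, and KIF2C and CDC25C were not called against palbociclib. The list then held 2 higher calls with ATRA and 1 with the combination, where 10.7% and 13.9% of all tested genes were called higher. The list medians were 0.05 with ATRA, -0.09 with palbociclib and 0.00 with the combination, and 22 of the 28 values were below 0 with palbociclib. CCNB1, the mitotic cyclin, had group means of 48.7 RPKM in untreated cells and 50.0, 48.3 and 48.7 with ATRA, palbociclib and the combination, and PLK1, a mitotic kinase, had 38.0, 38.7, 37.7 and 37.0. The difference between the lists was not tested.

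**Figure D4:**
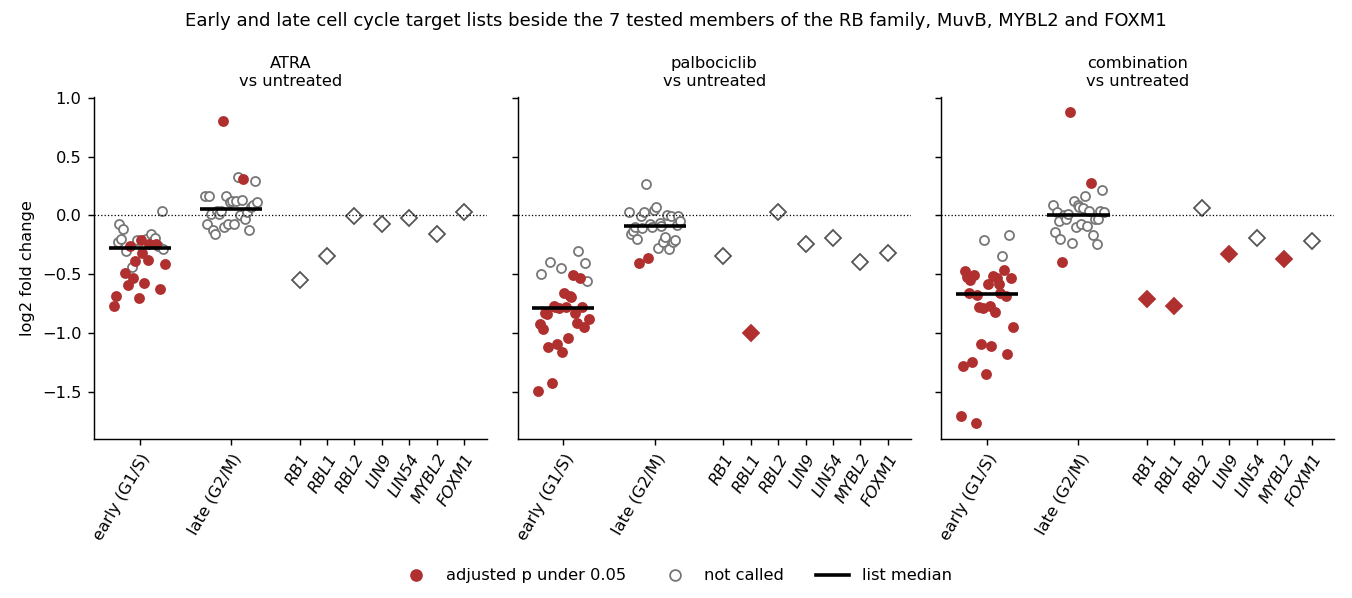
Log2 fold change against untreated cells (y axis) of the early list (30 genes), the late list (28 genes) and each of the 7 tested members (x axis) with ATRA, palbociclib and the combination (panels); filled symbols were called at an adjusted p under 0.05 and black lines are list medians. The early medians are -0.27, -0.79 and -0.67, and the late medians are 0.05, -0.09 and 0.00. With palbociclib RBL1, MYBL2, RB1 and FOXM1 fall within the range of the early genes, and only RBL1 is filled.

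The genes whose pattern over the 12 libraries was most like that of a called member were found by Pearson's r of log2 values among 4665 genes, as a description. For RBL1 they were RMI1 (r = 0.974), FANCI (0.972) and ORC1 (0.964), the last a gene of the early list. For MYBL2 they were TYMS (0.957), also of the early list, MARCKSL1 (0.952) and CENPU (0.943). For RB1 they were ACLY (0.977), IPO7 (0.977) and LARP4 (0.967), none of them in a list used here, and for LIN9 they were PPP4R3A (0.901), PHF19 (0.896) and KPNB1 (0.892). The points share library and rounding, and the RB1 neighbours also shared its low replicate 1 in the treated groups: ACLY read 67, 80 and 78 RPKM with ATRA, and IPO7 read 36, 47 and 43. In RBL1 and its neighbours replicate 1 was the lowest or tied lowest of each treated group, as in ORC1 with 26, 31 and 29 RPKM with ATRA. MYBL2 and its neighbours fell from replicate 1 to replicate 3 in each treated group, as in TYMS with 80, 71 and 62 RPKM with ATRA. The part of the length trend and of replicate number in these likenesses was not tested.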

How the data were processed

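Poly(A) RNA of 12 HL-60 libraries (4 treatments, 3 each) was sequenced. The authors aligned reads to the hg38 build (HISAT2), took gene counts from htseq-count at default settings and deposited RPKM rounded to whole numbers, entered here as a score, since a normalized unit rounded to whole numbers is neither counts nor exact RPKM; versions and the gene lengths used are not given in the sources used here. The authors tested their counts with voom, which RPKM does not allow.

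From these values log2(RPKM + 0.1) was fitted in limma 3.58.1 (R 4.3.3) with 1 mean per group over all 12 libraries, eBayes with trend, two-sided, for genes with at least 5 RPKM in at least 3 libraries, with Benjamini-Hochberg adjustment over the 7820 genes. Fold changes are on this scale and understate changes of low genes. Figures were drawn with Python 3.11.15. On simulated data for palbociclib against untreated, with 200 of 7820 genes changed, the fit recovered 0 at a log2 change of 0.25, 102 at 0.5, 181 at 1 and 198 at 2, with 0, 9, 11 and 15 false calls. The simulated noise was independent between genes and libraries, whereas real treated libraries of the same number deviated together. These rates may therefore not hold for the real data.

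Alternatives were other filters, pseudocounts, scalings, variance models, the threshold 0.001, the replicate number as a block and leaving out each library. A correction for gene length, the block in the 9 treated libraries alone and leaving out replicate 1 of every group (lists included) were chosen after seeing the data. Same-numbered libraries carry their number in the labels. Their deviations from group means correlated at 0.782 to 0.908 between ATRA and combination and at 0.438 to 0.702 between palbociclib and combination. These were therefore read as pairs in the counts of same-numbered libraries and in the replicate block. The main fit did not use this pairing. Against untreated libraries the correlations were 0.0453 to 0.367 and no pairing was assumed.

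Named genes were all members, partners called in any comparison, up to 4 examples per target list, and the 3 genes most like each called member. The members and lists were chosen with earlier results of these data known. Within a group, 2 libraries gave equal rounded values for 17.9% to 36.5% of tested genes, and none was counted as a duplicate.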

Additional observations from a re-analysis of the deposited data

How the results depend on the processing

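Of 1141 alternative values of the members' log2 fold changes, 1047 kept their direction and side of the threshold, 22 lost a call, 22 gained one and 50 changed sign. The count of members called, 0 with ATRA, became 1 with a robust fit, 1 with the replicate block, 1 with the length correction and 2 with both of these, and 0 to 1 with single libraries left out. The palbociclib count of 1 became 4 with the block, 2 with the length correction, 4 with both, 0 at an adjusted p under 0.001, 0 without replicate 1 of every group and 0 to 1 with single libraries left out. The combination count of 4 became 3 with lower filters and with the compared libraries alone, 5 with the block, 6 with the block and length correction (5 lower, and RBL2 higher), 0 at 0.001, 1 without replicate 1 of every group and 2 to 4 with single libraries left out. Against ATRA it became 1 with the compared libraries alone, and against palbociclib 1 with the block, 1 with the block in the 9 treated libraries and 1 with the block and length correction. The cause was not tested.

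With the replicate block, where the numbers were not shown to pair treated with untreated libraries, RB1 was called with ATRA (adjusted p = 0.000976), and MYBL2, FOXM1 and RB1 joined RBL1 with palbociclib (adjusted p = 0.00669, 0.0117 and 0.0235), as FOXM1 did with the combination (adjusted p = 0.0173). In the paired treated groups it changed no member's call but that of RB1 against palbociclib. Over all tested genes the block called 2767 (35.4%) in place of 1590 with ATRA and 1066 (13.6%) in place of 318 with palbociclib. With the combination it called 3538 (45.2%) in place of 2377. It called 51 (0.652%) in place of 9 against ATRA and 1839 (23.5%) in place of 977 against palbociclib. With the block and length correction, 3022, 1314 and 3800 of 7795 genes were called with ATRA, palbociclib and the combination. At 0.001, 369, 39, 629, 0 and 243 genes were called in the 5 comparisons. Against ATRA, lower filters called 39 to 41 genes, quantile scaling 15, the compared libraries alone 27 and the block in 9 treated libraries 179. For the departure from additivity lower filters called 59 to 90 genes in place of 0. The compared libraries alone gave 199 genes with palbociclib and 620 against palbociclib. Leaving out 1 untreated library, or palbociclib replicate 1 or 3, gave 163 to 203 genes with palbociclib (163 without untreated replicate 1), and leaving out 1 library gave down to 3 genes against ATRA (without replicate 3 of ATRA or of the combination). Without replicate 1 of every group, the counts were 482 with palbociclib, 100 against ATRA, 1489 against palbociclib and 150 for additivity.

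Changes of sign were in values near 0. RBL2 with ATRA, -0.01, was 0.011 with median-of-ratios scaling, 0.0041 with quantile scaling, 0.078 with the length correction, with or without the block, and 0.057 without replicate 1 of every group. LIN54 with ATRA was 0.053 with the length correction, with or without the block, and its departure from additivity was -0.013; without replicate 1 of every group these were 0.13 and -0.13. The RBL2 departure was -0.0079 without replicate 1 of every group. With single libraries left out, RBL2 ranged over -0.105 to 0.136 (ATRA), -0.0521 to 0.189 (palbociclib), -0.0521 to 0.238 (combination), -0.0744 to 0.245 (against ATRA), -0.128 to 0.21 (against palbociclib) and -0.12 to 0.217 (additivity). LIN54 ranged over -0.114 to 0.172 with ATRA and -0.172 to 0.124 for additivity. FOXM1 ranged over -0.0541 to 0.127 with ATRA, -0.0301 to 0.185 against palbociclib and -0.0591 to 0.156 for additivity. MYBL2 against palbociclib ranged over -0.0989 to 0.124, and LIN9 for additivity over -0.0861 to 0.073. Rounding to whole RPKM limits LIN9, LIN54, LIN52 and LIN37 most, and the values do not show how deeply a library was sequenced.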
